A study of Mus musculus with 14 samples.

Results

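The comparison set 3 libraries labelled macrophage against 3 libraries labelled monocyte, all sorted from mouse bone marrow at baseline, and tested the 12188 of 17118 genes in the deposited table that reached 1 CPM (reads scaled to the total of the library) in at least 3 of the 6 libraries. These 6 libraries are all of the macrophage and monocyte libraries among the 14 of the series. The series text speaks of wildtype mice, whereas the sorting protocol names Cx3Cr1gfp/+ mice, in which 1 copy of the chemokine receptor gene Cx3cr1 carries a green fluorescent protein (GFP) reporter. No agonist was given to the animals behind these 6 libraries per the labels, and no age or sex is stated there. The macrophage gate took cells without GFP, high in MHC class II, positive for CD169 and negative for Gr-1 and B220. The monocyte gate took cells high in GFP and positive for CD115, negative for B220, and pooled cells of low and high Gr-1. Whether replicates come from different animals is not stated, so a p-value here weighs a difference against variation among libraries, some of which may be technical.

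Monocytes are made in the marrow and leave it for the blood, where they patrol vessels or enter tissue and become macrophages or dendritic cells. Macrophages of the marrow stay there: they surround developing red cells, take up the nuclei that these expel, recycle iron from worn red cells, and keep blood stem cells in place. CD169, encoded by Siglec1, is a lectin by which such resident macrophages are often sorted. Colony stimulating factor 1, read by the receptor CD115 (Csf1r), keeps both cell types alive.

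Values are CPM, reads scaled to the total of the library and not divided by gene length, so a level can be compared between libraries but not between genes. Where 3 values follow each other they are replicates 1, 2 and 3. Differences are macrophage-labelled minus monocyte on the log2(CPM + 1) scale with their standard error (SE), which understates the difference of genes with low values. A gene is called higher or lower where the adjusted p of limma lay under 0.05. The genes of the sorting markers (Cx3cr1, Csf1r, Siglec1, Ly6c1, Ly6c2, Ly6g, H2-Aa, H2-Ab1 and H2-Eb1) were held apart by the gates and appear only as a check of them. The exception is the sum of monocyte markers, which includes Cx3cr1, Csf1r and Ly6c2.

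The libraries followed the monocyte gate more closely than the macrophage gate. Listed genes summed to between 416943 and 578709 CPM per library, and 1 CPM stood for 33.4 to 75.2 reads if the smallest step between values is 1 read. Pearson correlations of log2 values across genes were 0.931 to 0.978 between monocyte libraries, 0.942 to 0.969 between macrophage-labelled libraries and 0.838 to 0.864 between the groups. Csf1r read 859.8, 328 and 489.7 CPM in the monocyte libraries and 33.6, 24.9 and 52.9 CPM in the macrophage-labelled libraries. Cx3cr1 read 208, 83.1 and 89.7 against 5.06, 1.54 and 5.905 CPM. Both marks of the monocyte gate thus lay above in every monocyte library. Siglec1, the gene of the CD169 used in the macrophage gate, read 34.7, 2.203 and 14.1 against 18.9, 18.6 and 25.2 CPM, and its groups overlapped (log2 difference 0.86 ± 0.64, adjusted p = 0.42). The MHC class II gene H2-Ab1 read 596, 75.8 and 42.2 against 548, 933 and 370.1 CPM, and monocyte library 1 stood among the macrophage-labelled libraries (adjusted p = 0.056). The H2-Aa and H2-Eb1 genes also had overlapping groups.

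Markers that define macrophages went in both directions. Of 15 such genes, 5 were higher in the macrophage-labelled libraries, 3 were lower and 6 had no call, and Vsig4 lay under 1 CPM in all 3 of those libraries and was not tested. Their summed level was 611, 225 and 262 CPM in the monocyte libraries and 412, 322 and 483 CPM in the macrophage-labelled ones, so the groups overlapped, with monocyte library 1 highest of all. The 13 monocyte markers summed to 8311 to 10142 CPM in monocytes and 587 to 1096 CPM in the macrophage-labelled libraries. They include the sorting-marker genes Cx3cr1, Csf1r and Ly6c2, so this gap is not independent of the sort. Markers of cells that neither label names were also measured. Plasma cell markers (4 genes) summed to 1.59 to 13.8 CPM in monocytes and 425 to 7273 CPM in the macrophage-labelled libraries, and B cell markers (5 genes) to 9.35 to 11.8 CPM in monocytes and 64.3 to 657 CPM. Markers of type 1 conventional dendritic cells, or cDC1 (6 genes), summed to 9.28 to 30.8 CPM in monocytes and 122 to 546 CPM. Progenitor markers (4 genes) summed to 84.5 to 212 CPM in monocytes and 387 to 1045 CPM, and natural killer (NK) cell markers (3 genes) to 0.356 to 0.831 CPM in monocytes and 29.5 to 114 CPM. None of these defining markers was at 0 in all 3 macrophage-labelled libraries. The label macrophage is therefore used below only as the name of the libraries. In bulk RNA, fewer cells of a type and less RNA per cell cannot be told apart, and the part of these other cells in the results was not tested.

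**Figure D1:**
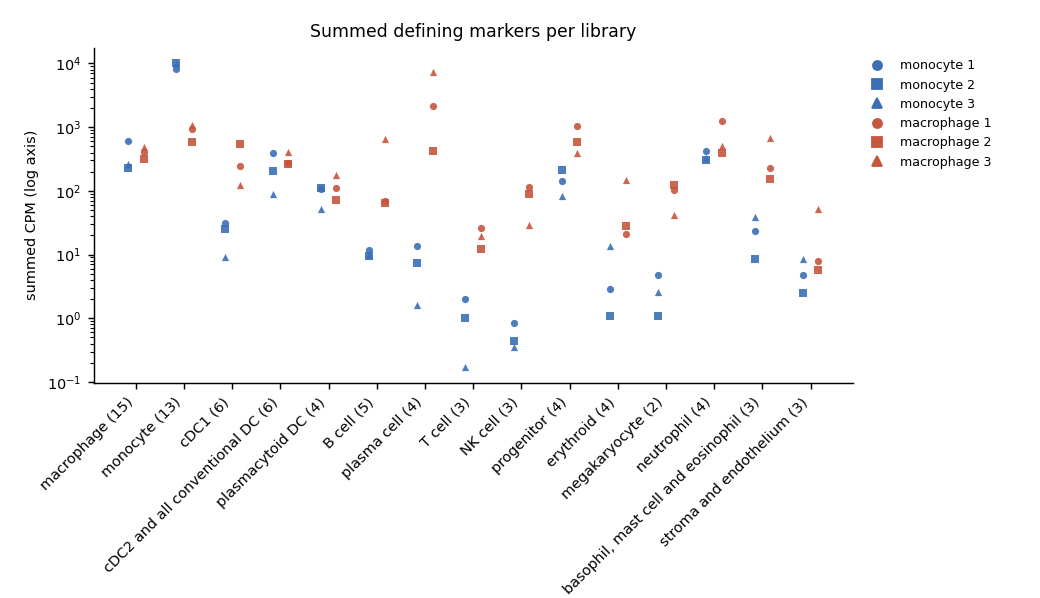
Summed CPM of defining marker genes of each cell type (number of genes in brackets) on a log axis, 1 point per library, with monocyte libraries in blue, macrophage-labelled libraries in red and symbols for the replicates. The macrophage markers overlap between groups, while the NK, T, plasma, B cell, cDC1, progenitor and megakaryocyte markers lie above every monocyte library in the 3 macrophage-labelled libraries. The monocyte markers include the sorting-marker genes Cx3cr1, Csf1r and Ly6c2.

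The macrophage-labelled libraries differed among themselves in which of these cell types led. Library 3 held the most plasma cell signal (2131, 425 and 7273 CPM), the most B cell signal (68.5, 64.3 and 657 CPM) and the most erythroid signal (21.2, 27.6 and 146 CPM). Library 2 held the most cDC1 signal (247, 546 and 122 CPM). Library 1 led for NK markers (114, 87.8 and 29.5 CPM) and progenitor markers (1045, 575 and 387 CPM). Plasma cell markers spanned 17.1-fold among the 3 libraries and B cell markers 10.2-fold, against 1.5-fold for the macrophage markers.

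Of 12188 genes tested, 2468 were called, which is 20.2%. Higher in the macrophage-labelled libraries were 1564 genes (12.8%) and lower were 904 (7.42%). The higher genes were mostly of low level, with a median monocyte mean of 1.36 CPM and a median macrophage-labelled mean of 10.02 CPM, and 686 of them had a monocyte mean under 1 CPM. Among all genes tested, 567 lay under 1 CPM in every monocyte library and so passed the filter only through the macrophage-labelled group, which fixes their direction, and 512 of these were called higher. The lower genes were well expressed in monocytes, with a median of 63.3 CPM there and 21.7 CPM in the macrophage-labelled libraries. Differences of at least 8-fold numbered 200 upward and 49 downward. The 2 groups did not overlap in 34.2% of the genes tested. The median difference of all genes was 0.097. Higher genes made up 63.4% of the calls. That share was 73.3% with libraries rescaled to 1 total, 51.3% when centred on their medians and 44.8% when quantile normalized, and these scalings moved the median difference to 0.26, -0.02 and -0.03. With a filter at 5 CPM the higher genes numbered 869, and without macrophage library 2 the lower genes numbered 537.

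**Figure D2:**
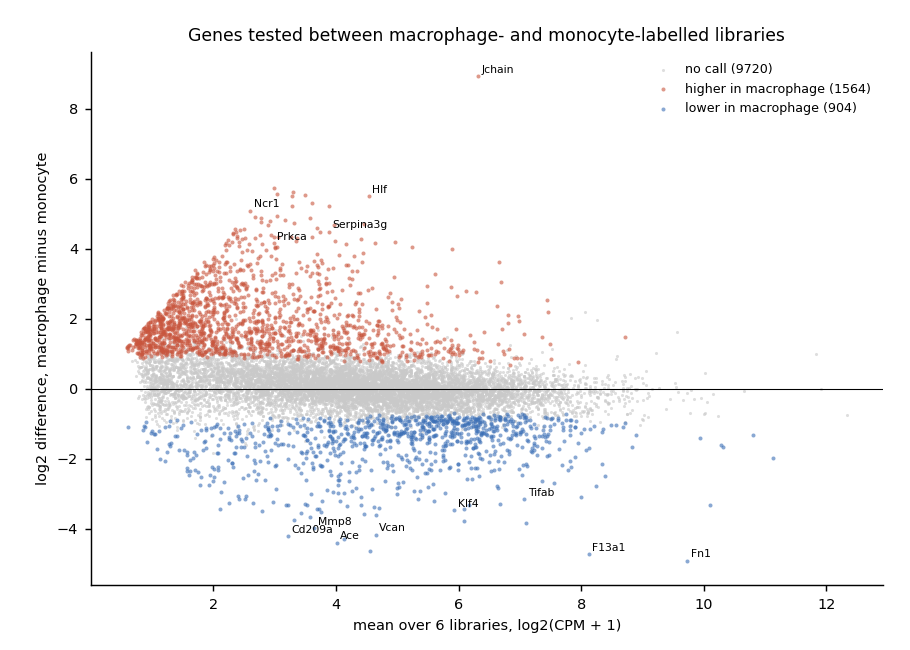
Log2 difference (macrophage-labelled minus monocyte) against the mean log2(CPM + 1) over 6 libraries for the 12188 genes tested, with 1564 genes called higher in red, 904 called lower in blue and the others in grey. Genes called higher crowd at low mean levels, and Jchain and Fn1 mark the extremes of the 2 directions.

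Genes of classical monocytes were lower in the macrophage-labelled libraries. Fibronectin (Fn1, chr1:71585473-71653234, mm10), an adhesive protein of the matrix, read 4067, 4472 and 5586 CPM in the monocyte libraries and 191, 53.2 and 357 CPM in the macrophage-labelled libraries. Coagulation factor XIII A chain (F13a1), a transglutaminase that cross-links fibrin, read 1068, 1990.0 and 1397 against 62.4, 21.4 and 111 CPM. The lowest monocyte library was 11.4 times the highest macrophage-labelled library for Fn1 and 9.61 times for F13a1. Their differences were -4.91 ± 0.54 and -4.73 ± 0.48 (adjusted p = 7.9e-05 and 4.7e-05). Versican (Vcan), a proteoglycan of classical monocytes, read 83.5, 187 and 74.8 against 4.85, 2.74 and 8.41 CPM. Ms4a6c, a membrane-spanning gene of the MS4A family, read 196, 301 and 197 against 20.2, 16.9 and 30.2 CPM. The calcium-binding S100a4 read 168, 108 and 175 against 17.1, 7.6 and 25.03 CPM, and lysozyme 2 (Lyz2) read 4051, 2664 and 3839 against 418, 216 and 466 CPM. Of 24 classical monocyte genes tested, 22 were lower and 0 higher, with a median of -2.205, where the background is 7.42% lower. The exceptions were Fcnb and Tmem176b. The gates selected on CD115 and GFP, so these genes are not independent of the sort.

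Genes of nonclassical monocytes, the patrolling cells low in Ly6C, did not move as a block. Of 20 tested members 2 were higher (10%, near the 12.8% of all genes) and 5 lower (25%, against 7.42%). The filter fixed the direction of 1 of the lower ones, and of the other 19 genes 2 were higher and 4 lower. The median was -0.11 and turned positive after rescaling to a common total (0.04) or with the filter at 5 CPM (0.08). It was also positive without monocyte library 1 (0.55) and without macrophage library 1 (0.07) or 3 (0.08). Ace, angiotensin-converting enzyme, was lower in every macrophage-labelled library, at 266, 25.7 and 56.3 against 3.17, 0.821 and 4.71 CPM (-4.401 ± 0.68, adjusted p = 0.00072). Its level in monocyte library 1 was the highest by far. Cebpb, a factor needed for nonclassical monocytes, read 105, 32.5 and 120.5 against 19.4, 10.1 and 18.5 CPM (-2.203 ± 0.44, adjusted p = 0.0037). Treml4 and Nr4a1, which also mark these cells, had no call (Treml4 was called without monocyte library 1, adjusted p = 0.0338), at 33.8, 6.49 and 7.48 against 16.6, 29.6 and 10.7 CPM and 102, 7.97 and 28.1 against 15.1, 63.8 and 11.6 CPM. Monocyte library 1 was again the highest for Nr4a1. Without that library 8 members were higher, without macrophage library 2 none was, and without macrophage library 1 or 2 the lower members numbered 3 each. Without monocyte library 3 or macrophage library 3, with no filter or after median centring the higher members numbered 1 each, and at the 5 CPM filter 3 were lower.

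**Figure D3:**
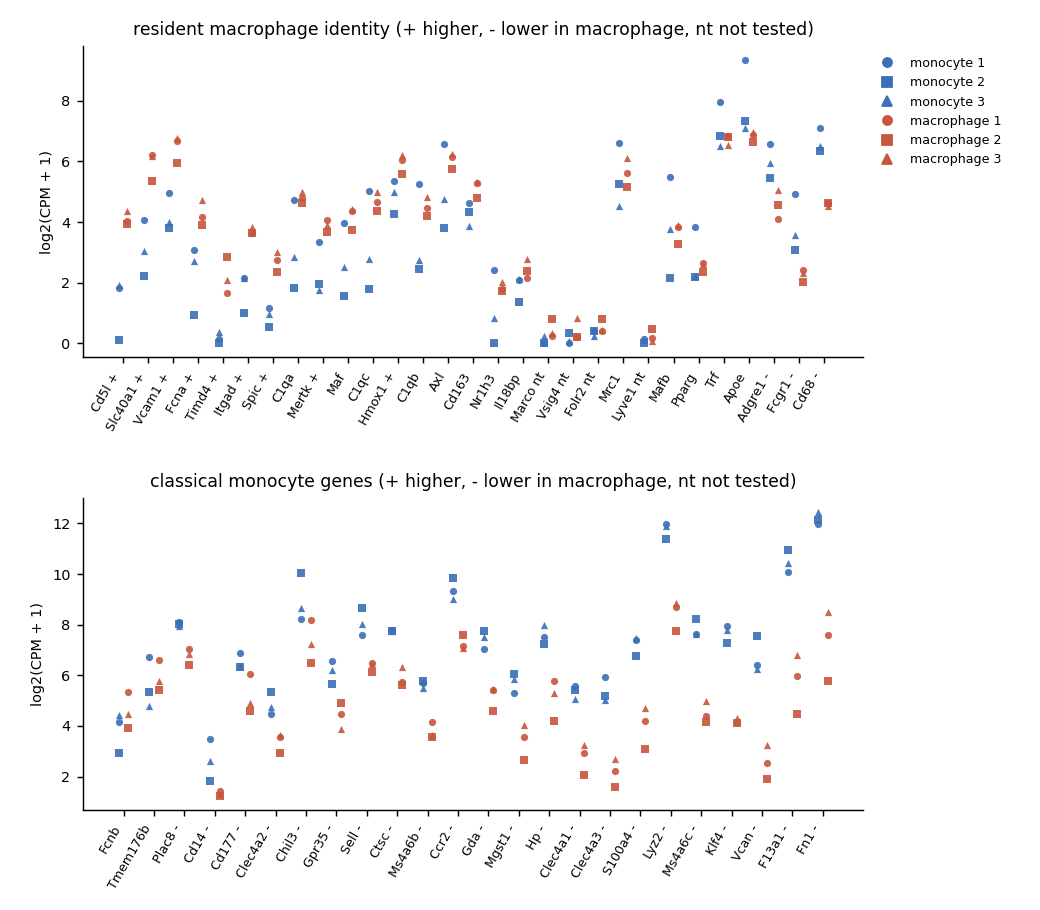
Log2(CPM + 1) of each member of the resident macrophage and classical monocyte lists, 1 point per library (blue monocyte, red macrophage-labelled), with calls marked beside the gene names. Classical monocyte genes separate in 22 of 24 genes, while several macrophage genes overlap and monocyte library 1 often stands with or above the red points.

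Genes of resident marrow macrophages were split. Of 29 such genes in the table, 25 could be tested, 9 were higher (36%) and 3 lower (12%), with a median of 1.02. Among all genes 12.8% were higher and 7.42% lower. The filter fixed the direction of Timd4, under 1 CPM in every monocyte library, and of the other 24 genes 8 were higher and 3 lower. Ferroportin (Slc40a1), which exports iron from cells, read 15.9, 3.64 and 7.16 CPM in the monocyte libraries and 73.9, 40.1 and 71.7 CPM in the macrophage-labelled libraries (2.82 ± 0.42, adjusted p = 0.0006). Vcam1, an adhesion molecule that holds progenitors and red cell precursors to macrophages, read 29.8, 12.9 and 15.1 against 100.2, 61.3 and 109 CPM (2.22 ± 0.34, adjusted p = 0.00063). All 3 macrophage-labelled libraries lay above all monocyte libraries for both. Cd5l, a protein that tissue macrophages secrete, read 2.53, 0.0801 and 2.78 against 15.5, 14.2 and 19.5 CPM (2.83 ± 0.44). Spic, the transcription factor of iron-recycling macrophages, read 1.24, 0.441 and 0.938 against 5.77, 4.08 and 7.04 CPM (1.82 ± 0.31), and the groups did not overlap. Timd4, a receptor for phosphatidylserine on dying cells, read 0.106, 0 and 0.3 against 2.12, 6.19 and 3.28 CPM (2.02 ± 0.34, adjusted p = 0.0014, and 0.0521 after quantile normalization). Mertk, a kinase receptor for the engulfing of dying cells, read 9.05, 2.904 and 2.38 against 15.9, 11.6 and 14.1 CPM (1.53 ± 0.397, adjusted p = 0.016). Its call was lost without monocyte library 3, macrophage library 1 or macrophage library 2 (adjusted p = 0.0655, 0.0941 and 0.0535) and with no filter (0.052).

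Other canonical macrophage markers were lower or had no call. Cd68, a protein of late endosomes, was lower, at 137, 79.8 and 89.5 CPM in the monocyte libraries and 23.8, 23.5 and 22.3 CPM in the macrophage-labelled libraries (-2.05 ± 0.26, adjusted p = 0.00019). Adgre1, which encodes the F4/80 antigen, read 93.9, 42.6 and 59.99 against 16.2, 22.9 and 32.6 CPM (-1.397 ± 0.33, adjusted p = 0.011), and its call was lost without macrophage library 1 or 2 (0.0726 and 0.0516). The high-affinity IgG receptor Fcgr1 read 29.2, 7.41 and 10.9 against 4.34, 3.02 and 3.96 CPM (-1.61 ± 0.42, adjusted p = 0.017), and was likewise not called without macrophage library 1 or 2 (0.0689 and 0.0921) or with no filter (0.0568). Without macrophage library 1 or 2 the lower members of the list numbered 1 each. The complement gene C1qa read 25.3, 2.52 and 6.13 against 26.7, 23.5 and 30.5 CPM and C1qc read 31.6, 2.44 and 5.79 against 24.02, 19.7 and 30.6 CPM, with no call (adjusted p = 0.053 and 0.12). Monocyte library 1 reached the level of the macrophage-labelled libraries in both genes, whereas monocyte libraries 2 and 3 stayed below. Without monocyte library 1 their adjusted p-values were 4.7e-05 and 7.95e-05, and 16 of the resident macrophage genes were called higher. The TAM receptor Axl had the same arrangement of libraries, at 93.8, 12.8 and 25.99 against 70.3, 53.3 and 74.4 CPM (adjusted p = 0.22, and 0.000562 without monocyte library 1). Cd163, the scavenger receptor for haptoglobin and haemoglobin, read 23.7, 19.1 and 13.7 against 38.1, 26.5 and 38.8 CPM, so that its groups did not overlap, and missed the threshold (adjusted p = 0.054). It was called higher after rescaling to a common total (0.0115), median centring (0.0496) or quantile normalization (0.0314) and without monocyte library 1 (0.0334). Mrc1, the mannose receptor, read 96.7, 36.8 and 22.2 against 47.7, 34.7 and 67.99 CPM with full overlap (adjusted p = 0.86).

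Genes for engulfing dying cells gave calls in both directions. Of 29 tested genes of efferocytosis and complement, 6 were higher (20.7%) and 9 lower (31.0%), against 12.8% and 7.42% of all genes (median -0.23). Without monocyte library 1 there were 11 higher, and without macrophage library 2 there were 3. The filter fixed the direction of 2 of the higher ones, and of the other 27 genes 4 were higher and 9 lower. Stab2, a scavenger receptor of sinusoidal lining cells that also binds dying cells, read 1.52, 0.3204 and 1.97 against 10.6, 10.8 and 12.02 CPM (2.497 ± 0.34, adjusted p = 0.00033). Complement C3 was lower, at 707, 676 and 1024 against 177, 62.5 and 134 CPM (-2.78 ± 0.36), as was the endocytic receptor Lrp1, at 1409, 339 and 868 against 99.4, 54.7 and 118 CPM (-3.09 ± 0.46). Dock1, a Rac activator of engulfment, read 70.2, 75.98 and 80.2 against 27.8, 18.3 and 17.98 CPM (-1.798 ± 0.25). Of 21 tested iron and heme genes, 3 were higher and 3 lower, which is 14.3% each against 12.8% and 7.42% of all genes, so the share higher was near the background, with 5 higher without monocyte library 1 or after rescaling to a common total. Besides Slc40a1, the iron-sequestering lipocalin Lcn2 was higher, at 28.5, 22.6 and 15.5 against 144, 43.03 and 56.8 CPM (1.67 ± 0.400). Haptoglobin (Hp) was lower, at 182, 151 and 254 against 53.2, 17.3 and 38.6 CPM (-2.499 ± 0.37), as was the heme-sensing repressor Bach1, at 188, 127 and 140.4 against 72.5, 49.8 and 53.2 CPM (-1.36 ± 0.26).

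Of 40 lysosomal genes tested, 17 were lower in the macrophage-labelled libraries, 1 was higher and 22 had no call (median -0.795). The shares were 42.5% lower and 2.5% higher, against 7.42% and 12.8% of all genes. Without macrophage library 2 the lower ones numbered 10, and without macrophage library 1 none was higher. Lamp1, a major protein of the lysosome membrane, read 454, 450.4 and 470.4 CPM in the monocyte libraries and 113, 81.2 and 142 CPM in the macrophage-labelled libraries (-2.06 ± 0.26, adjusted p = 0.0002). The spread within each group was small beside this gap. The cathepsins Ctsc, Ctsa, Ctsh and Ctss, proteases of the lysosome, had differences of -1.87 ± 0.25, -2.05 ± 0.28, -2.01 ± 0.29 and -1.92 ± 0.303. Of 26 phagocyte oxidase and antimicrobial genes, 14 were lower (53.8%) and 4 higher (15.4%, near the 12.8% of all genes), with a median of -0.99. Nlrp3, an inflammasome sensor, read 49.9, 30.02 and 47.7 against 6.91, 5.62 and 3.96 CPM (-2.74 ± 0.303), and Naip2, a sensor of bacterial secretion proteins, read 105, 97.2 and 106 against 29.7, 21.9 and 29.9 CPM (-1.89 ± 0.23).

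Receptors by which phagocytes sense microbes and antibodies gave more calls downward than upward. Of 26 Toll-like receptor genes and adaptors, 12 were lower (46.2%) and 3 higher (11.5%), against 7.42% and 12.8% of all genes (median -0.86). The share higher was near the background. The lower ones numbered 7 without macrophage library 1 and 6 without macrophage library 2. The filter fixed the direction of Tlr3 and Tlr5, each under 1 CPM in every library of 1 group. Of the other 24 genes 2 were higher and 11 lower. Tlr8 and Tlr13, endosomal sensors of RNA, read 43.8, 60.2 and 42.01 against 4.88, 2.49 and 10.7 CPM and 74.97, 122 and 74.6 against 18.5, 27.8 and 17.9 CPM. Tlr5, the flagellin receptor, read 5.45, 3.83 and 7.67 against 0.0897, 0.279 and 0.798 CPM (-2.25 ± 0.33), and Ticam2, the adaptor TRAM, read 69.1, 62.8 and 56.8 against 15.6, 11.5 and 12.8 CPM (-2.17 ± 0.24). Tlr3, the sensor of double-stranded RNA, went the other way, at 0.884, 0.581 and 0.356 CPM in the monocyte libraries and 58.01, 127 and 27.5 CPM in the macrophage-labelled libraries (5.24 ± 0.45, adjusted p = 2.4e-05). Macrophage-labelled library 2 was highest for Tlr3, as it was for the cDC1 markers. The other higher members, Tlr11 and Tlr12, encode receptors for profilin, and Tlr11 read 4.53, 1.26 and 1.18 against 36.4, 88.6 and 14.2 CPM. Of 26 Fc receptor genes and partners, 14 were lower (53.8%) and 2 higher (7.69%), with a median of -1.28. The 2 higher ones lay under 1 CPM in every monocyte library, so the filter fixed their direction. Of the other 24 genes 0 were higher and 14 lower. Fcer1g, the shared signalling chain, read 136, 138 and 124 against 34.5, 22.6 and 31.8 CPM (-2.15 ± 0.24), and Fcgr3 read 125, 106 and 116 against 20.9, 16.6 and 31.2 CPM (-2.33 ± 0.27). The inhibitory receptor Lilrb4a read 60.2, 99.7 and 97.5 against 10.5, 10.2 and 12.3 CPM (-2.82 ± 0.27). The higher Fc receptor genes included Fcrla, a gene of B cells, at 0.937, 0 and 0.0188 against 12.8, 21.3 and 46.8 CPM (4.29 ± 0.45). Among 22 C-type lectin genes 11 were lower (50%) and 4 higher (18.2%), with 7 lower without macrophage library 2. The filter fixed the direction of 2 of the higher ones. Of the 19 lectin genes that did not pass through 1 group alone 2 were higher and 11 lower. Dectin-1 (Clec7a), which binds fungal glucans, read 91.4, 168 and 76.001 against 10.9, 13.7 and 15.3 CPM (-2.91 ± 0.31). Ly75, the endocytic receptor DEC-205, was higher, at 4.14, 4.01 and 3.08 against 43.2, 41.6 and 26.6 CPM (2.98 ± 0.29).

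Transcription factors went in both directions. Of 50 tested factors, 13 were lower (26%) and 11 higher (22%), against 7.42% and 12.8% of all genes. The filter fixed the direction of 1 of the higher ones, and of the other 49 genes 10 were higher and 13 lower. Klf4 (chr4:55527137-55532475), a zinc finger factor that drives monocyte fate, read 245, 153 and 220.3 CPM in the monocyte libraries and 16.7, 16.4 and 18.9 CPM in the macrophage-labelled libraries. The macrophage-labelled libraries lay within 16.4 to 18.9 CPM, and the difference was -3.47 ± 0.25 (adjusted p = 1.6e-05), among the lowest p-values of all. Zeb2, a factor of myeloid identity, read 422, 519.6 and 390.1 against 97.5, 101 and 91.2 CPM (-2.18 ± 0.24, adjusted p = 7e-05). Spi1, which encodes PU.1, and Cebpa, named here after their values were seen, were also lower (-1.32 ± 0.29 and -1.49 ± 0.33, adjusted p = 0.0063 and 0.0075). Ets1 and Ikzf2, factors best known from lymphocytes, were higher, at 11.4, 5.21 and 3.96 against 148, 86.3 and 184 CPM and 4.12, 6.01 and 3.09 against 93.1, 78.6 and 51.5 CPM (4.21 ± 0.37 and 3.795 ± 0.31). Gata2, a factor of stem, mast and basophil cells, read 4.56, 2.68 and 3.08 against 113, 69.6 and 29.2 CPM (3.84 ± 0.42).

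Other genes with the lowest p-values among those that were lower were less tied to a named programme. Tifab, an inhibitor of the TRAF6 pathway, read 478, 347 and 385 against 43.9, 50.9 and 37.98 CPM (-3.16 ± 0.24). Ptpro, a receptor tyrosine phosphatase, read 100.5, 82.95 and 78.6 against 6.97, 4.36 and 7.86 CPM (-3.602 ± 0.27), and Mefv, which encodes the inflammasome protein pyrin, read 73.8, 68.99 and 82.1 against 6.82, 3.36 and 6.53 CPM (-3.58 ± 0.29). Xdh, xanthine dehydrogenase, read 240.2, 175 and 259.7 against 24.98, 13.7 and 22.2 CPM, Apba1, an adaptor of vesicle traffic, read 127, 94.8 and 142 against 11.2, 11.2 and 15.9 CPM, and Zfyve9, an anchor of SMAD signalling, read 49.7, 50.7 and 35.7 against 3.02, 2.38 and 3.64 CPM. The scavenger receptor Msr1 read 26.1, 47.6 and 35.2 against 1.79, 0.425 and 4.03 CPM. Cd300lg, a receptor of the CD300 family, read 51.4, 31.4 and 44.2 against 2.63, 1.34 and 3.48 CPM. From gene to gene the lowest monocyte library was 5.95 (Apba1) to 10.1 (Mefv) times the highest macrophage-labelled library.

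Short stretches of promoter sequence were compared because these groups moved together. RefSeq promoters (GRCm38.p6, the 250 bases before the start nearest to the deposited one) were found for 9586 of the 12188 genes tested, 1187 of the higher and 699 of the lower. Of 3 motifs searched on both strands, GAGGAAGT, a sequence that PU.1 binds, was held by 5.01% of the promoters of lower genes, 2.95% of those of higher genes and 2.76% of all. The share of lower genes rests on 35 of 699 promoters. Near-identical promoters of related genes, such as Pira2, Lilra6 and Pirb, each count there. TTGCNNAA, a form of the C/EBP site, was held by 9.87%, 8.76% and 7.49%. CAGGTG, an E-box, was held by 14.3%, 18.4% and 14.5%. Matches to different motifs overlapped in 2 promoters. A match is a description of these letters and not a shown site. The sequences below, with matches in capitals and read 5′ to 3′ toward the start, show the lower genes Pira2, Lilra6 and Mmp8, which hold GAGGAAGT (Pira2 holds CAGGTG as well), the lower gene Zeb2 with TTGCNNAA, and the higher genes Hlf and Gimap9 with CAGGTG.
Pira2 (chr7:3845052-3845301, minus strand): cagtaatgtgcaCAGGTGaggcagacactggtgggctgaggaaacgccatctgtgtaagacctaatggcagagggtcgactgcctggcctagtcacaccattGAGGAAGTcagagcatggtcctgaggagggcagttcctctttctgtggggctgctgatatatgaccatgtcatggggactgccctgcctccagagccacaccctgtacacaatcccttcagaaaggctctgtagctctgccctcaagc
Lilra6 (chr7:3915502-3915751, minus strand): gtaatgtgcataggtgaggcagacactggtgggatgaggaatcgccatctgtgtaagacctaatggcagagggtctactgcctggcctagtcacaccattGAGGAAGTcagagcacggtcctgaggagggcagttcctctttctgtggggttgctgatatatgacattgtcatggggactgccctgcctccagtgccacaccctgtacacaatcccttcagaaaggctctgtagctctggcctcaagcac
Mmp8 (chr9:7558179-7558428, plus strand): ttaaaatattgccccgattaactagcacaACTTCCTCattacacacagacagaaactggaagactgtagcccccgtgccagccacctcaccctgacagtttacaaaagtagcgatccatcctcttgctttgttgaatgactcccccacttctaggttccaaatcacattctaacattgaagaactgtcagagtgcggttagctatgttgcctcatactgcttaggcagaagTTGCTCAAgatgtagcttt
Zeb2 (chr2:45117443-45117692, minus strand): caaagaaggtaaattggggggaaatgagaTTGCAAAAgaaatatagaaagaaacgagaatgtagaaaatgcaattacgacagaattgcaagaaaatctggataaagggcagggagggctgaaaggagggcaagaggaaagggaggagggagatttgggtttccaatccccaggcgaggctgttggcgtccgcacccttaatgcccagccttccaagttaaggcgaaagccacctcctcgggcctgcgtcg
Hlf (chr11:90390918-90391167, minus strand): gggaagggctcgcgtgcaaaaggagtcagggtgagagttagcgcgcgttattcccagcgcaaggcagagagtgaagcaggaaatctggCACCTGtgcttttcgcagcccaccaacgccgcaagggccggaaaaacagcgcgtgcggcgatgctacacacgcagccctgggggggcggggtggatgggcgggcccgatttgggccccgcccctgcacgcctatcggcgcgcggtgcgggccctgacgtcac
Gimap9 (chr6:48675885-48676134, plus strand): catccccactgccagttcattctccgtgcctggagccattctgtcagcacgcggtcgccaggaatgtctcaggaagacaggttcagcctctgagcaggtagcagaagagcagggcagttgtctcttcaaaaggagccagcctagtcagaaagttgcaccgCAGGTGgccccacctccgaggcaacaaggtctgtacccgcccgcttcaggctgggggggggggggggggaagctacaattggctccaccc
Apart from Gimap9, the member of the Gimap cluster with a match, they had the lowest p among called genes with a named symbol and the motif, and were thus chosen after values were seen. Pira2 and Lilra6 belong to a family of paired immunoglobulin-like receptors on chromosome 7 whose copies are alike, so the split of reads between them is uncertain. Their promoters are nearly the same around GAGGAAGT, so they are not separate examples of that match. Pira2 read 104, 103 and 106 against 16.6, 19.3 and 24.8 CPM (-2.33 ± 0.24), and Lilra6 read 49.4, 38.9 and 71.3 against 3.599, 7.08 and 8.096 CPM (-2.92 ± 0.33). Mmp8, a collagenase of neutrophils and monocytes, read 30.05, 80.8 and 47.8 against 2.27, 0.631 and 4.91 CPM (-3.98 ± 0.47), and its window held TTGCNNAA as well.

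Antigen presentation genes other than the sorted ones gave calls in a minority of members. Of 19 class II and peptide-loading genes, which exclude the sorted ones, 4 were higher (21.1%) and 2 lower (10.5%). Among all genes 12.8% were higher and 7.42% lower, so the share lower was near the background. H2-Ob and H2-Oa, whose products restrain peptide loading by DM, read 7.96, 6.01 and 2.38 against 48.5, 78.7 and 60.1 CPM and 3.41, 1.302 and 1.87 against 13.4, 23.1 and 15.3 CPM (3.38 ± 0.36 and 2.53 ± 0.34, adjusted p = 6.8e-05 and 0.00028). The groups did not overlap, and library 2 was highest in both. Ifi30, the thiol reductase of the class II pathway, was lower, at 188, 103 and 166 against 30.04, 26.7 and 48.4 CPM (-2.09 ± 0.303). Without monocyte library 1 the higher members numbered 7, and without macrophage library 2 they numbered 2. Of 23 class I genes, 5 were higher (21.7%, against 12.8% of all genes) and 0 lower (against 7.42%). The class Ib genes H2-Q7 and H2-Q6 read 6.31, 2.86 and 1.19 against 67.5, 39.8 and 38.01 CPM and 5.65, 0.898 and 1.65 against 43.03, 22.2 and 31.96 CPM (3.59 ± 0.41 and 3.32 ± 0.44), with reads that near-identical copies may share. Without monocyte library 3, macrophage library 1 or macrophage library 2, the higher members numbered 3 each.

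Genes of cDC1, the dendritic cells that cross-present antigen, were higher in 15 of 19 tested and lower in 0 (1 lower without macrophage library 2), where the background is 12.8% higher. Of these, 4 were under 1 CPM in every monocyte library, so the filter fixed their direction, and of the other 15 genes 11 were higher. Batf3, Irf8, Naaa and Itga8 had no call, and 2 members had negative differences, down to -0.96. Without monocyte library 1 Batf3 was called higher (adjusted p = 0.0403). Xcr1, the chemokine receptor that defines these cells, read 0.0884, 1.101 and 0.188 CPM in the monocyte libraries and 73.8, 148 and 29.1 CPM in the macrophage-labelled libraries (5.64 ± 0.498, adjusted p = 2.5e-05). Gcsam read 0.301, 0.1001 and 0 against 23.96, 49.03 and 13.1 CPM, the integrin Itgae (CD103) read 0.248, 0 and 0.863 against 12.9, 24.3 and 10.3 CPM, and the adhesion molecule Cadm1 read 5.14, 3.14 and 0.747 against 40.2, 80.4 and 24.9 CPM. In each of these 4 genes library 2 was the highest and library 3 the lowest of the macrophage-labelled libraries, and all of them lay above the monocyte libraries. Clec9a, the receptor for actin of dead cells, read 17.7, 19.5 and 5.68 against 59.4, 161 and 28.3 CPM (2.27 ± 0.56, adjusted p = 0.013), and was not called without macrophage library 1 or 2 (0.0731 and 0.0772). Genes shared by other conventional dendritic cells were mixed, with 6 of 19 higher and 4 lower (31.6% and 21.1%, against 12.8% and 7.42% of all genes). The filter fixed the direction of 3 of the higher ones, and of the other 16 genes 3 were higher and 4 lower. Cd209a and Clec10a, lectins of type 2 dendritic cells and monocyte-derived cells, were lower, at 106, 40.01 and 13.7 against 1.47, 0.675 and 1.45 CPM and 57.9, 22.3 and 17.6 against 2.88, 1.02 and 2.33 CPM (-4.21 ± 0.56 and -3.31 ± 0.43). Sirpa, the receptor for CD47, read 704, 347 and 489 against 114, 66.3 and 127 CPM (-2.31 ± 0.33). Zbtb46, the factor of conventional dendritic cells, read 12.2, 3.18 and 2.12 against 15.7, 32.6 and 12.4 CPM (1.82 ± 0.51, adjusted p = 0.024), a call that was lost without monocyte library 2 or 3 or macrophage library 1 or 2 (0.0697, 0.0705, 0.0906 and 0.147), with no filter (0.0742) and after median centring (0.0615) or quantile normalization (0.0878). Without macrophage library 1 the higher members of that list numbered 3. Of 23 maturation and costimulation genes 8 were higher (34.8%, against 12.8% of all genes) and 2 lower (8.7%, near the 7.42% of all genes). There were 5 higher without macrophage library 1 and 1 lower without macrophage library 1 or 3. The filter fixed the direction of 1 of the higher ones, and of the other 22 genes 7 were higher and 2 lower. Cd274, which encodes PD-L1, read 11.4, 5.49 and 4.13 against 21.7, 19.2 and 22.4 CPM (1.57 ± 0.34). Markers of plasmacytoid dendritic cells disagreed, with Ccr9 higher at 1.11, 1.18 and 0.713 against 12.98, 8.35 and 32.4 CPM and Siglech lower at 6.26, 9.03 and 2.53 against 0.808, 0.279 and 1.14 CPM (3.04 ± 0.42 and -1.899 ± 0.397). The other defining markers of these cells, Tcf4 and Bst2, had no call. Of 19 tested genes of their list 6 were higher (31.6%), 3 lower (15.8%) and 10 had no call. The filter fixed the direction of 1 of the higher ones.

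Genes of plasma cells were among the largest differences upward. Jchain (chr5:88519809-88527897), which links IgA and IgM into polymers, read 8.26, 3.87 and 0.0563 CPM in the monocyte libraries and 2029, 397 and 6891 CPM in the macrophage-labelled libraries (8.93 ± 0.902, adjusted p = 4.7e-05). Pou2af1, a coactivator of immunoglobulin genes, read 0.407, 0 and 0.188 against 40.95, 17.3 and 237 CPM (5.58 ± 0.69), and the chaperone Mzb1 read 0.2299, 0 and 0.0563 against 52.2, 13.997 and 249.6 CPM (5.74 ± 0.73). The plasma cell surface proteoglycan Sdc1 read 5.22, 3.42 and 1.46 against 44.2, 12.6 and 107 CPM (3.31 ± 0.61), and Derl3, a factor of protein removal from the endoplasmic reticulum, read 0.0707, 0 and 0.431 against 20.3, 5.14 and 72.9 CPM (4.21 ± 0.67). For each of these genes macrophage-labelled library 3 was the highest and library 2 the lowest. Of 23 plasma cell genes with values 19 were tested, 10 were higher and 0 lower, with 6 higher without macrophage library 1 and 16 without library 2. Only 3 of those tested had every monocyte library under 1 CPM, and of the other 16 genes 7 were higher. Of 26 B cell genes with values 21 were tested, 14 were higher and 0 lower (1 lower after quantile normalization). Among these, 10 were tested only through the macrophage-labelled group, with every monocyte library under 1 CPM, and of the other 11 genes 5 were higher. With no filter, 12 of 26 B cell genes were higher. Cd79a, part of the B cell receptor complex, read 0.619, 0 and 0.281 against 25.1, 11.4 and 159 CPM (4.87 ± 0.700), and the B cell factor Pax5 read 0.442, 0 and 0.525 against 6.19, 11.6 and 115 CPM (4.07 ± 0.77). Library 3 was 6.34 and 9.91 times the higher of libraries 1 and 2 in Cd79a and Pax5, although the gate left out cells with B220, a surface marker of B cells. Lax1, an adaptor that restrains lymphocyte signalling, read 0.212, 1.32 and 0.169 against 45.6, 21.2 and 90.5 CPM (4.94 ± 0.47). Genes of the unfolded protein response gave few calls, with 3 of 30 higher (10%) and 1 lower (3.33%). Among all genes 12.8% were higher and 7.42% lower, so the share higher was near the background. Dnajb9, a chaperone of that response, read 10.4, 15.3 and 9.31 against 28.4, 26.7 and 56.6 CPM (1.54 ± 0.33, adjusted p = 0.0057). The higher members of that list numbered 7 without macrophage library 2 and 1 without monocyte library 2 or 3 or macrophage library 1 or 3, with no filter or after median centring.

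Many genes of NK and T cells were higher in the macrophage-labelled libraries. Of 28 NK genes with values 20 were tested and 19 were higher, and of 31 T cell genes 30 were tested and 28 were higher, with 0 lower in either list. The filter fixed the direction of 11 of those NK genes and 13 of those T cell genes, since every monocyte library lay under 1 CPM. Of the remaining 9 NK genes 8 were higher, and of the remaining 17 T cell genes 15 were higher. With no filter, 21 of 27 NK genes and 26 of 31 T cell genes were higher. Il2rb, a chain of the receptor for interleukins 2 and 15, read 1.47, 0.3204 and 0.394 CPM in the monocyte libraries and 145, 83.4 and 36.9 CPM in the macrophage-labelled libraries (5.55 ± 0.45, adjusted p = 2e-05). Ncr1, the activating receptor NKp46, read 0, 0 and 0.113 against 60.2, 45.6 and 14.6 CPM (5.09 ± 0.44), Klrb1c (NK1.1) read 0.743, 0.3805 and 0.188 against 42.6, 30.2 and 10.8 CPM (4.15 ± 0.44), and perforin (Prf1) read 0.0531, 0 and 0 against 6.04, 4.08 and 4.75 CPM (2.54 ± 0.28). For the 3 receptors library 1 was highest and library 3 lowest. The T cell kinase Lck read 1.096, 1.101 and 0.375 against 32.9, 23.5 and 16.2 CPM (3.73 ± 0.34), the adaptor Lat read 0.371, 0 and 0.206 against 15.6, 10.3 and 9.54 CPM (3.41 ± 0.31), and the factor Tcf7 read 1.698, 0 and 0.319 against 19.98, 14.7 and 22.1 CPM (3.69 ± 0.38). Cd3e, a chain of the T cell receptor complex, read 0.619, 0.421 and 0.07501 against 12.9, 5.94 and 10.3 CPM (2.93 ± 0.34). Il18r1 and Il2ra, receptor chains of activated and innate lymphocytes, had differences of 4.41 ± 0.33 and 2.801 ± 0.31. Icos, a costimulatory receptor, read 0.177, 0 and 0.15002 against 10.4, 10.2 and 6.81 CPM (3.17 ± 0.29), and Il1rl1, the receptor of interleukin 33, read 1.91, 1.46 and 1.2002 against 30.2, 20.2 and 20.3 CPM (3.27 ± 0.296). The highest macrophage-labelled library was 1.53 times the lowest for Icos and 1.496 times for Il1rl1, whereas for Jchain it was 17.4 times the lowest.

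The Gimap genes encode GTPases of immunity-associated proteins, which sustain lymphocytes, and lie side by side on chromosome 6. All 8 were higher (3 of them tested only through the macrophage-labelled group), and remained so with each single library left out and under each other setting tried. Gimap3 read 1.004, 0 and 0.502 CPM in the monocyte libraries and 90.3, 43.4 and 68.6 CPM in the macrophage-labelled libraries (5.505 ± 0.36, adjusted p = 1.6e-05). Gimap4 read 1.01, 2.103 and 0.169 against 96.1, 51.6 and 87.7 CPM (5.31 ± 0.38), Gimap6 read 1.45, 2.72 and 0.563 against 96.4, 60.5 and 121 CPM (5.22 ± 0.37), and Gimap8 read 0.601, 1.38 and 0.3 against 54.4, 35.6 and 53.2 CPM (4.81 ± 0.32). Gimap1, Gimap5, Gimap7 and Gimap9 had differences of 4.58 ± 0.34, 3.76 ± 0.31, 3.45 ± 0.35 and 2.84 ± 0.397. Macrophage-labelled library 2 was the lowest for all 8 genes, and the highest of the group was 1.53 (Gimap8) to 2.33 (Gimap7) times the lowest. The cluster spans chr6:48647234-48770851 (mm10), 123.6 kb. The nearest tested genes on either side had no call: Zfp775, before it, read 4.21, 3.12 and 3.36 against 4.22, 3.89 and 3.05 CPM (0.05 ± 0.29, adjusted p = 0.94), and Tmem176b, after it, read 103, 38.95 and 26.6 against 96.2, 41.5 and 53.3 CPM (0.32 ± 0.45, adjusted p = 0.7). Farther before the cluster Gm5111 and Repin1 were higher by smaller amounts (1.71 ± 0.32 and 1.198 ± 0.34, adjusted p = 0.0025 and 0.025). AI854703, between Zfp775 and the cluster, was not tested. It read 0.265, 0.501 and 0.263 against 4.52, 0.91 and 1.57 CPM, so its groups did not overlap.

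**Figure D4:**
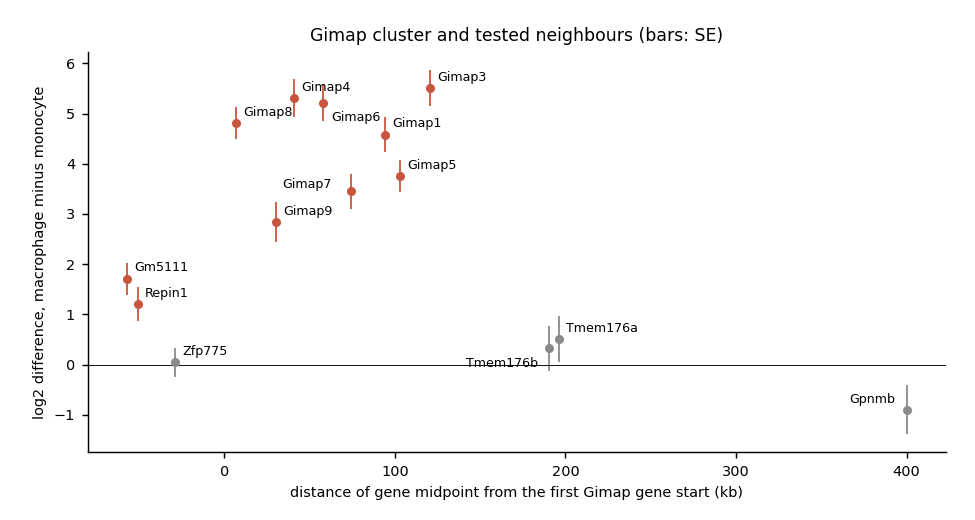
Log2 difference (macrophage-labelled minus monocyte, bars SE) of the 8 Gimap genes and the tested genes nearest to them, against the distance of each gene's midpoint from the start of the first Gimap gene in kb. The 8 Gimap genes lie between 2.84 and 5.505, while the nearest tested neighbours, Zfp775 and Tmem176b, lie at 0.05 and 0.32 without a call. Farther out, Gm5111 and Repin1 lie at 1.71 and 1.198 and were called.

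Genes of stem and progenitor cells were also among those higher. Hlf (chr11:90336535-90390917), a factor of blood stem cells, read 2.21, 4.45 and 1.35 CPM in the monocyte libraries and 268, 125 and 112 CPM in the macrophage-labelled libraries (5.502 ± 0.39, adjusted p = 1.6e-05). Mycn read 0, 0 and 0.188 against 35.9, 19.03 and 16.4 CPM (4.47 ± 0.34), and Angpt1, a niche ligand that stem cells also make, read 2.71, 6.89 and 1.74 against 174, 114 and 69.1 CPM (4.702 ± 0.42). Library 1 was highest for each of these 3 genes. Kit, the stem cell factor receptor, read 54.7, 76.5 and 34.5 against 389, 234 and 137 CPM (2.12 ± 0.38), so monocyte libraries were not free of it. Of 35 tested stem and progenitor genes 28 were higher and 0 lower (1 lower after median centring). The filter fixed the direction of 11 of them, and of the other 24 genes 17 were higher. Ctla2a, a cathepsin inhibitor, read 0.388, 0.561 and 0.394 against 54.7, 46.4 and 23.1 CPM (4.79 ± 0.35), Serpina3g, a serine protease inhibitor, read 2.95, 1.54 and 2.0 against 92.6, 64.1 and 55.3 CPM (4.49 ± 0.301), and the kinase Prkca read 1.52, 0.421 and 0.825 against 30.5, 29.2 and 38.2 CPM (4.16 ± 0.31).

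Many genes of erythroid cells and megakaryocytes, and of basophils, mast cells and eosinophils taken as 1 list, were also called higher. Of 27 erythroid genes 22 were higher and 0 lower, or 14 higher without monocyte library 2, and 5 had a direction fixed by the filter, with 17 of the other 22 genes higher. The carbonic anhydrase Car2 read 7.66, 5.13 and 14.1 against 152, 106 and 223 CPM (4.05 ± 0.36), and the factor Gata1 read 0.619, 0.3204 and 2.04 against 14.8, 8.27 and 19.4 CPM (2.95 ± 0.395). The globin gene Hbb-bs read 1.02, 0.182 and 7.64 against 10.02, 14.99 and 79.4 CPM (3.14 ± 0.76, adjusted p = 0.011), with library 3 far above the others, and was not called with no filter (0.0509) or after quantile normalization (0.0601). Of 20 tested megakaryocyte genes 13 were higher and 0 lower, and 9 of those tested had passed only through the macrophage-labelled group. Of the other 11 genes 5 were higher. Itga2b, the integrin chain CD41, read 2.53, 1.101 and 1.99 against 81.3, 93.5 and 31.5 CPM (4.49 ± 0.399), the thrombin receptor F2r read 1.45, 1.44 and 0.656 against 58.01, 55.8 and 23.3 CPM (4.34 ± 0.37), and Vwf read 5.57, 1.86 and 1.82 against 52.5, 87.1 and 23.2 CPM (3.69 ± 0.47). Library 3 was the lowest macrophage-labelled library for all 3, whereas it was the highest for Car2, Gata1 and Hbb-bs. Of 18 tested basophil, mast cell and eosinophil genes 13 were higher and 1 lower, the latter not called without macrophage library 1. The filter fixed the direction of 1 of the higher ones, and of the other 17 genes 12 were higher and 1 lower. Mcpt8, a defining marker of these cells, had no call, and neither had Prss34, Hdc and Ear2. Without macrophage library 2 Mcpt8 was called higher (adjusted p = 0.0286). Prg2, the major basic protein of eosinophils, read 16.1, 4.59 and 33.8 against 174, 117 and 643 CPM (3.99 ± 0.65), Cpa3, a mast cell protease, read 1.47, 0.3805 and 0.844 against 43.1, 30.6 and 16.1 CPM (3.96 ± 0.38), and Ccr3, the eotaxin receptor, read 1.096, 0.1602 and 1.46 against 18.4, 26.2 and 30.2 CPM (3.81 ± 0.35).

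Neutrophil genes went in both directions. Of 29 tested, 14 were higher (48.3%) and 8 lower (27.6%), against 12.8% and 7.42% of all genes. There were 9 higher without macrophage library 1 and 5 lower without macrophage library 2. S100a8, a calcium-binding protein of the neutrophil cytosol, was higher and read 52.98, 45.3 and 31.8 against 461, 131 and 189 CPM (2.38 ± 0.399), the secondary granule protein lactoferrin (Ltf) read 65.7, 13.9 and 17.8 against 387, 121 and 132 CPM (2.798 ± 0.54), and the mature neutrophil gene Retnlg read 1.45, 1.62 and 1.56 against 7.81, 50.7 and 58.9 CPM (3.57 ± 0.58). The antimicrobial Camp read 47.6, 4.23 and 15.7 against 277, 73.2 and 93.6 CPM (2.95 ± 0.67, adjusted p = 0.0083, and 0.082 without macrophage library 1). The primary granule protease elastase (Elane) was lower and read 251, 243 and 260.1 against 139.6, 70.9 and 97.6 CPM (-1.34 ± 0.27), and cathepsin G (Ctsg) read 183, 253 and 177 against 74.1, 53.6 and 51.6 CPM (-1.76 ± 0.25). Mcemp1 was lower as well, at 38.98, 46.5 and 40.97 against 8.26, 2.04 and 5.15 CPM (-2.95 ± 0.37). Stromal and endothelial genes were measured at low levels, with 13 of 26 under the filter. Of the 13 tested 8 were higher and 1 lower, or 5 higher without macrophage library 1, and of the 7 that did not pass through 1 group alone 3 were higher. Emcn, of sinusoidal endothelium, read 0, 0.0601 and 0.131 against 4.67, 3.23 and 2.37 CPM (2.02 ± 0.300), and Tek, the angiopoietin receptor, read 0.0354, 0 and 0.225 against 9.45, 3.87 and 2.78 CPM (2.42 ± 0.38). Acta2, of smooth muscle, was lower, at 2.26, 2.16 and 2.4003 against 0.239, 0.469 and 0.585 CPM (-1.201 ± 0.28).

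**Figure D5:**
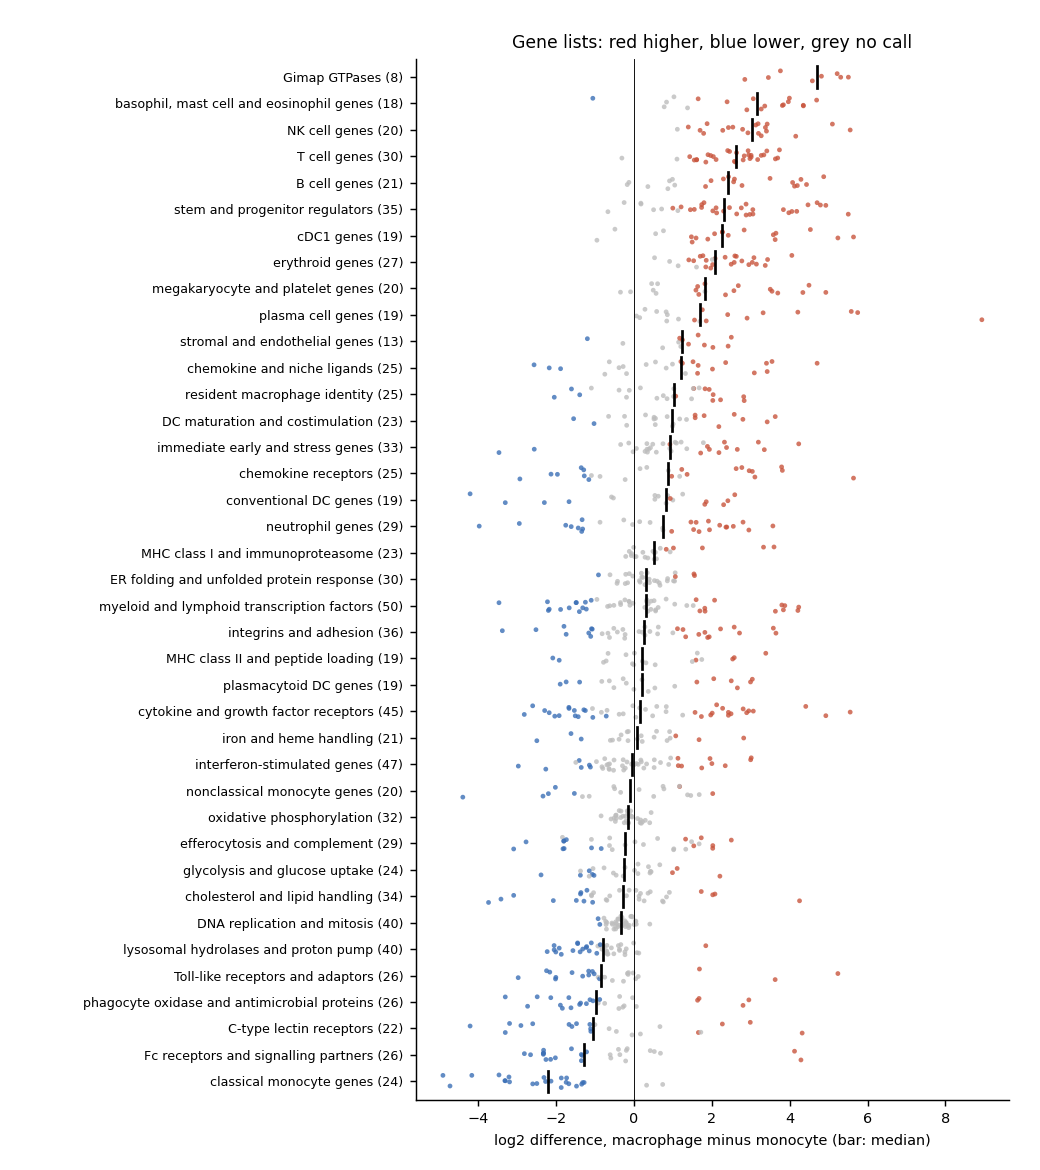
Log2 difference (macrophage-labelled minus monocyte) of each tested member of the 39 gene lists, 1 point per gene (red higher, blue lower, grey no call), with a black bar at the list's median and the number tested in brackets. Classical monocyte, Fc receptor and C-type lectin genes lie lowest, Gimap, basophil and eosinophil, NK and T cell genes highest, and the glycolysis, oxidative phosphorylation and DNA replication and mitosis lists have medians of -0.26, -0.16 and -0.33. Tested members that passed the filter only through the macrophage-labelled group lie to the right by that choice, among them 13 T cell, 11 NK and 11 stem and progenitor genes.

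Several list counts moved by more than 1.5 times with a filter or scaling. With the filter at 5 CPM the higher genes numbered 9 for NK, 8 for B cell, 11 for erythroid, 7 for megakaryocyte, 9 for neutrophil, 3 for conventional dendritic cell and 2 for stromal genes, since fewer of them were tested. After quantile normalization they numbered 8 for B cell, 10 for erythroid, 9 for neutrophil and 4 for stromal genes. With no filter the higher erythroid genes numbered 12 and the higher conventional dendritic cell genes 3, and after median centring the latter numbered 3 and the higher stromal genes 5. The higher counts of Gimap, T cell, stem and progenitor and cDC1 genes and the lower count of classical monocyte genes stayed within 1.5 times in these settings.

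Chemokine receptors and ligands also held calls in both directions. Of 25 tested receptors 11 were higher (44%) and 7 lower (28%), against 12.8% and 7.42% of all genes. There were 7 higher at the 5 CPM filter or with no filter and 6 after quantile normalization. Of the 20 receptors that did not pass the filter through 1 group alone 8 were higher and 5 lower. Ccr2, which brings monocytes out of the marrow, read 648, 914 and 518 against 140.3, 190.0 and 134 CPM (-2.13 ± 0.28), while Cxcr3 and Cxcr6, receptors of lymphocytes, read 2.55, 1.38 and 1.09 against 32.8, 27.3 and 10.7 CPM and 2.32, 2.74 and 2.03 against 30.1, 16.3 and 15.3 CPM (3.103 ± 0.41 and 2.62 ± 0.32). Of 42 ligands and niche factors with values 25 were tested, 12 were higher (48%) and 3 lower (12%). There were 7 higher at the 5 CPM filter, and 6 higher and 5 lower after quantile normalization. The filter fixed the direction of 3 of the higher ligands, and of the other 22 genes 9 were higher and 3 lower. Xcl1, the ligand of Xcr1 and a product of NK and T cells, read 0, 0 and 0.0188 against 15.9, 14.7 and 3.51 CPM (3.400 ± 0.45), and Ccl5 read 1.86, 0.3805 and 0.15002 against 32.2, 12.1 and 11.8 CPM (3.42 ± 0.44). Ccl9 was lower, at 168, 222 and 133 against 33.8, 21.2 and 30.1 CPM (-2.57 ± 0.27). Cxcl12, the niche chemokine that retains stem cells, read 2.48, 0 and 3.94 against 6.37, 4.37 and 12.3 CPM (1.65 ± 0.54, adjusted p = 0.049), and leaving out any of monocyte library 2 or macrophage libraries 1, 2 and 3 ended its call (0.102, 0.152, 0.0814 and 0.125). So did a pseudocount of 0.1 (0.105), no filter (0.123), a common total (0.0555), median centring (0.0972) and quantile normalization (0.228). Of 45 cytokine receptors 16 were higher (35.6%) and 15 lower (33.3%). The filter fixed the direction of 6 of the higher ones, and of the other 39 genes 10 were higher and 15 lower. Il6ra, the interleukin 6 receptor, read 329, 202 and 282 against 41.6, 28.9 and 41.2 CPM (-2.82 ± 0.27). Of 36 integrins and adhesion genes 12 were higher (33.3%) and 8 lower (22.2%), or 4 lower without macrophage library 2. The filter fixed the direction of 3 of the higher ones, and of the other 33 genes 9 were higher and 8 lower. The tetraspanin Cd81 was higher, at 14.1, 13.8 and 10.7 against 95.8, 62.9 and 87.2 CPM (2.57 ± 0.26), and L1cam was lower, at 138, 51.3 and 67.4 against 6.04, 4.11 and 11.1 CPM (-3.39 ± 0.398).

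Immediate early genes, which also respond to cell handling, were higher in part. Of 33 tested 11 were higher (33.3%, against 12.8% of all genes) and 2 lower (6.06%, near the 7.42% of all genes), with a median of 0.92. There were 18 higher without monocyte library 1 and 7 without macrophage library 2. The filter fixed the direction of 1 of the higher ones, and of the other 32 genes 10 were higher and 2 lower. Egr1 read 6.596, 0.541 and 3.17 CPM in the monocyte libraries and 55.7, 112 and 49.2 CPM in the macrophage-labelled libraries (4.23 ± 0.51, adjusted p = 0.00014), and Fosb read 20.9, 5.83 and 6.24 against 75.2, 140.3 and 75.7 CPM (3.19 ± 0.43). Library 2 was the highest for both. Fosl2, another member of the Fos family, was lower, at 202, 129 and 224 against 31.3, 27.3 and 30.3 CPM (-2.57 ± 0.26). Interferon-stimulated genes had no common direction, with 9 of 47 higher and 6 lower, which is 19.1% and 12.8% against 12.8% and 7.42% of all genes. There were 4 higher without macrophage library 1 and 11 lower without monocyte library 2. The filter fixed the direction of 2 of the higher ones, and of the other 45 genes 7 were higher and 6 lower. The GTPases Iigp1 and Gbp4 were higher (3.01 ± 0.28 and 2.99 ± 0.31), and Ifi204 and Ifitm3 lower (-2.98 ± 0.32 and -2.27 ± 0.33).

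The share called lower was above that of all genes for glycolysis and lipid handling, and not for oxidative phosphorylation and cell division. Of 32 oxidative phosphorylation genes limma called 0 in either direction, and 1 had an unadjusted p under 0.05. Ndufb8, a subunit of complex I, read 55.7, 45.6 and 50.9 against 36.2, 28.3 and 35.7 CPM (-0.59 ± 0.24, adjusted p = 0.1), and was called lower after median centring (0.0183) and without monocyte library 2 (0.0477). The lower members numbered 3 after median centring, 2 without monocyte library 2, and 1 without macrophage library 3 or after quantile normalization. Of 40 genes of DNA replication and mitosis 2 were lower (5%, near the 7.42% of all genes) and 0 higher (against 12.8%), with a median of -0.33. The lower members numbered 6 after median centring, 3 without monocyte library 1 or 2, 1 with no filter, a common total or no intensity trend, and 0 without monocyte library 3 or macrophage library 1 or 2. Plk1, a mitotic kinase, read 44.5, 45.6 and 72.3 against 31.2, 23.5 and 38.4 CPM (adjusted p = 0.076), and was called lower after median centring (0.0414) and without monocyte library 2 (0.0498). Of 24 glycolysis genes 3 were higher (12.5%, near the 12.8% of all genes) and 5 lower (20.8%, against 7.42% of all genes). The glucose transporter Slc2a3 was higher, at 10.4, 9.39 and 6.62 against 58.1, 42.01 and 33.7 CPM (2.204 ± 0.29), and hexokinase 2 (Hk2) lower, at 182, 125 and 144 against 76.6, 50.02 and 47.1 CPM (-1.38 ± 0.27). Glycolysis members called lower numbered 9 after median centring, 9 without monocyte library 2, 2 without macrophage library 2 and 3 without macrophage library 3, and those higher numbered 1 without monocyte library 3 or macrophage library 1. Of 34 cholesterol and lipid genes 10 were lower (29.4%) and 4 higher (11.8%, near the 12.8% of all genes), or 7 higher without monocyte library 1 and 2 without macrophage library 2. Apoc2, the cofactor of lipoprotein lipase, read 20.8, 9.96 and 10.8 against 0.447, 0 and 0.584 CPM (-3.42 ± 0.35), and Soat1, which esterifies cholesterol, read 162, 212 and 182 against 47.6, 40.3 and 41.2 CPM (-2.08 ± 0.23). The receptor Vldlr was higher, at 0.141, 0 and 0.113 against 45.3, 19.2 and 8.35 CPM (4.25 ± 0.47). The filter fixed the direction of Apoc2 and Vldlr, each under 1 CPM in every library of 1 group. Of the other 32 lipid genes 3 were higher and 9 lower.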

How the data were processed

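Bulk RNA was measured in 3 monocyte and 3 macrophage-labelled libraries (ribosome-depleted total RNA per the labels' protocols). The values, CPM plus an offset of 0.0001, were deposited by the authors as a table of 17118 genes whose name says FPKM. They were read as CPM because 87.9% to 90.8% of the low values (up to 50 steps) lay within 0.05 steps of whole multiples of 1 step per library, whatever the gene length, against at most 9.6% with a step 7% longer. Too few values were whole to recover counts, so no count test was run. Per the submitters' processing notes the build was mm10 and the tools STAR 2.5.3a and Partek, whose roles remain unstated, like the annotation and strand setting. Overlapping, antisense and near-identical genes are therefore uncertain. A further 3 columns that match no sample by name were not used.

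The offset was removed, and log2(CPM + 1) was fitted with limma 3.58.1 in R 4.3.3 (lmFit, eBayes with intensity trend), two-sided, with Benjamini-Hochberg adjustment over the 12188 genes that reached 1 CPM in at least 3 libraries, or at least 2 when 1 library was left out. Alternatives changed the pseudocount, filter, scaling, intensity trend, replicate block and the libraries entered.

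Genes named are the 12 largest differences in each direction (adjusted p under 0.05, groups not overlapping, at least 5 CPM on average in the group where the gene is higher, an assigned symbol), the 8 lowest p-values in each direction at 2-fold or more, up to 5 members of each of 39 lists in order of p, and defining markers. Others are said to be chosen after their values were seen or belong to the Gimap cluster, its neighbours or a list count. Some genes that this rule selects are not reported here. The comparison, members and lists were chosen with earlier results of these data known.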

Additional observations from a re-analysis of the deposited data

How the results depend on the processing

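Beside 2468 calls, a pseudocount of 0.1 gave 2392 and one of 5 gave 2350, of which 2386 and 2339 were among the 2468. Without a filter 790 genes were lower. With a filter at 5 CPM the higher genes numbered 869, since fewer genes were tested, and after quantile normalization they numbered 1004, of which the cause was not tested. Leaving out each library in turn gave 1699 to 3364 calls, 1045 to 2100 higher and 537 to 1264 lower, the last lowest without macrophage library 2. Of 208 named genes that were called, 184 were tested in every setting and 162 of these kept their call throughout; the other 24 were not tested in at least 1 setting. None reversed where tested. Replicates with the same number deviated together in part (correlations 0.183, 0.084 and 0.115), each library correlating best with its own number, which is a hint from the data and not the design. With the replicate block 2609 genes were called, 1632 higher and 977 lower. Among named genes the block gave a call to 4 that had none, C1qa and Plk1 among them (adjusted p = 0.0426 and 0.0387), and ended 1 call, and it moved the nonclassical monocyte genes called higher from 2 to 4 and the glycolysis genes called lower from 5 to 8. Among named genes without a call, the difference changed sign on leaving out libraries for Mrc1 (-0.3 to 0.74), Nr4a1 (-1.22 to 0.55), Irf4 (-0.2 to 1.63), Tcf4 (-0.01 to 0.65), Bst2 (-0.26 to 0.38) and Col1a1 (-0.59 to 1.45), for Batf3 after quantile normalization (-0.1) and for Bst2 after rescaling to a common total (0.16). The cause of these shifts was not tested. Genes near 1 CPM rest on 33.4 to 75.2 reads per library if the smallest step is 1 read.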
